A study of Drosophila melanogaster with 4 samples.

Results

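Of the 17023 genes counted in whole *Drosophila melanogaster* ovaries, 10 were nearly absent in *bam* RNAi while present in *aramis* RNAi. They were chosen by level: at least 2 CPM (the count of a gene scaled to the sum of all counts in its library) in both *aramis* RNAi libraries and under 0.5 CPM in both *bam* RNAi libraries. The 10 genes are *Cpr11A*, *AttA*, *Cyp4e3*, *CG6508*, *CG42750*, *CG5418*, *CG16898*, *flip*, *CG13028* and *lncRNA:marge*. They made up 0.127% of the 7855 genes at 2 CPM or more in both *aramis* RNAi libraries. The reverse rule, at least 2 CPM in both *bam* RNAi libraries and under 0.5 CPM in both *aramis* RNAi libraries, held for 55 genes. The levels chose the 10 genes, so their difference between the genotypes is given here as a description, and no test supports it.

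Both genotypes carried *UAS-Dicer2* and *NosGAL4*, a driver used to express transgenes in germ cells, and whole ovaries hold somatic cells too. The first genotype expressed *aramis* RNAi, which targets a gene for an RNA helicase of the DEAD-box family, given under the symbol *ais* in the annotation. The second expressed *bam* RNAi, against *bag of marbles*, which drives the daughter of a germline stem cell into differentiation. Females had been fed yeast and were dissected within 1 to 3 days of eclosing, and poly(A) RNA was sequenced in 2 libraries per genotype. Nothing in the labels says whether the 2 libraries came from separate sets of flies, so the spread between them may be partly technical. In whole ovaries, fewer cells of a type and less RNA per cell cannot be told apart.

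The 10 genes have no single shared role. Insect cuticle is secreted by epidermal cells and built from chitin bound by structural proteins, to which *Cpr11A* belongs. Attacins such as *AttA* are antimicrobial peptides that the fat body, blood cells and epithelia make when the immune deficiency (Imd) pathway is switched on. Cytochrome P450 enzymes, the family of *Cyp4e3*, oxidise hormones, fatty acids and foreign compounds. Pepsin-like aspartic proteases, the family of *CG6508*, cut proteins in the gut lumen or in lysosomes. For *CG42750*, *CG5418*, *CG16898*, *flip* and *CG13028* no role is stated here, and *lncRNA:marge* is annotated as a noncoding RNA.

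Library totals ran from 15530745 to 16754980 counts in *aramis* RNAi and from 12977013 to 14764740 in *bam* RNAi, so that 0.5 CPM stands for 7.77 to 8.38 counts in *aramis* RNAi and 6.49 to 7.38 counts in *bam* RNAi. A count of 0 allows a level of up to 3 counts, or 0.179 to 0.193 CPM in *aramis* RNAi and 0.203 to 0.231 CPM in *bam* RNAi. The targeted gene *ais* had 6.80 and 9.21 CPM in *aramis* RNAi, against 66.7 and 25.5 CPM in *bam* RNAi. In the fit over all genes *ais* was called lower in *aramis* RNAi, by a log2 fold change of -2.19 with an SE of 0.56 (DESeq2 adjusted p = 0.00186). This call was lost without *aramis* RNAi replicate 1 (DESeq2 adjusted p = 0.223), without *aramis* RNAi replicate 2 (DESeq2 adjusted p = 0.0636) or without *bam* RNAi replicate 1 (DESeq2 adjusted p = 0.150). The other targeted gene, *bam*, had 2.92 and 4.38 CPM in *aramis* RNAi, against 4.39 and 5.55 CPM in *bam* RNAi. Its log2 fold change of -0.09 had an SE of 0.69 and was not called (DESeq2 adjusted p = 0.948). Both libraries labelled *bam* RNAi had at least as much *bam* mRNA as the others, ovaries with the driver alone were not analysed here, and *bam* RNAi stands throughout for the library so labelled. Of 22 germline markers found in the tables, 21 were at 2 CPM or more in both *aramis* RNAi libraries, and 13 were called lower and 1 higher in *aramis* RNAi, where 7.79% of all genes with an adjusted p were called lower and 9.85% higher (6 and 0 without *aramis* RNAi replicate 1, 7 and 0 without replicate 2).

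*Cpr11A*, a cuticle protein gene, was the most abundant (FBgn0030394; chromosome X, 12486970 to 12489448, plus strand, dm6; 4 exons). It had 18.1 and 13.5 CPM in *aramis* RNAi, against 0.154 and 0 CPM in *bam* RNAi. These levels rest on 303 and 210 counts in *aramis* RNAi and on 2 and 0 counts in *bam* RNAi. Both *aramis* RNAi libraries were high, and the lower of them was 62.3 times the *bam* RNAi floor of 3 counts. Over the summed counts the ratio was 220, with a 95% exact interval of 60.7 to 1825. Computed as planned, against the floor of 3 counts per library, the ratio was at least 72.8. Intervals here and below cover counting error only. Those of the ratios pool the 2 libraries of each genotype and leave out the spread between them. PCR copies of a molecule can be counted more than once, so the intervals may be too narrow even for counting error.

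*AttA*, the attacin gene, was the only one of the 10 with no count in either *bam* RNAi library (FBgn0012042; chromosome 2R, 14747362 to 14748215, plus strand; 2 exons). It had 5.91 and 2.96 CPM in *aramis* RNAi, from 99 and 46 counts. Against the floor of 3 counts per library, its mean of 4.44 ± 2.08 CPM (SD, n = 2) in *aramis* RNAi was at least 20.4-fold higher. The first *aramis* RNAi library had 1.99 times the level of the second, more than counting error covers, as the 95% exact Poisson intervals (4.80 to 7.19 CPM and 2.17 to 3.95 CPM) did not overlap.

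*Cyp4e3*, the P450 gene, was as uneven between the *aramis* RNAi libraries (FBgn0015035; chromosome 2L, 9747839 to 9750071, minus strand; 6 exons). It had 6.27 and 2.90 CPM in *aramis* RNAi, against 0.0771 and 0.0677 CPM, or 1 count each, in *bam* RNAi. Its ratio over the summed counts was 64.4 (95% exact interval 17.5 to 537), and against the floor of 3 counts per library at least 21.1. The first *aramis* RNAi library had 2.16 times the level of the second. *Cpr11A* was the third gene whose *aramis* RNAi intervals did not overlap, at 1.34 times, and in the other 7 genes they overlapped. Of the 10 genes, 5 were higher in the first *aramis* RNAi library and 5 in the second. The 3 genes whose intervals did not overlap were all higher in the first.

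*CG6508*, the aspartic protease gene, lay close to the lower limit (FBgn0032303; chromosome 2L, 10819107 to 10820485, plus strand; a single exon). It had 2.21 and 3.54 CPM in *aramis* RNAi, against 0 and 0.271 CPM in *bam* RNAi. The *bam* RNAi levels stand on 0 and 4 counts. The ratio over the summed counts was 19.8 (95% exact interval 7.46 to 74.1).

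For the other protein-coding genes, which carry identifiers or short names, no function is described here. *CG42750* (FBgn0261804; chromosome 2L, 18159811 to 18275770, minus strand) spans 115960 bases, with a longest transcript of 6913 bases in 16 exons. It had 11.6 and 9.59 CPM in *aramis* RNAi, against 0.154 and 0.203 CPM in *bam* RNAi. Its ratio over the summed counts was 59.1 (95% exact interval 25.1 to 183), and against the floor of 3 counts per library at least 48.9. After *Cpr11A* it was the most abundant of the 10 by CPM, but per kilobase of transcript it was the lowest, at 1.54 CPM per kb in *aramis* RNAi.

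*CG5418* (FBgn0032436; chromosome 2L, 12451945 to 12453242, minus strand; 2 exons) was even between replicates, with 6.15 and 6.37 CPM in *aramis* RNAi. In *bam* RNAi it had 0 and 0.203 CPM, from 0 and 3 counts. The ratio over the summed counts was 57.9 (95% exact interval 19.5 to 283), and against the floor of 3 counts per library at least 28.8. *CG16898* (FBgn0034480; chromosome 2R, 20003620 to 20005003, minus strand; 2 exons) was as even, with 5.55 and 5.67 CPM in *aramis* RNAi. It had 0.231 and 0.474 CPM in *bam* RNAi, and its ratio was 15.6 (95% exact interval 8.26 to 33.0). Both genes thus had nearly equal levels in the *aramis* RNAi libraries. The *bam* RNAi counts were few, 0 and 3 for *CG5418* and 3 and 7 for *CG16898*, and the intervals of the summed-count ratios overlapped.

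*flip* (FBgn0037229; chromosome 3R, 4269221 to 4277928, minus strand; 4 exons) had 3.40 and 4.38 CPM in *aramis* RNAi, against 0.308 and 0.406 CPM in *bam* RNAi. It was among the genes with the smallest ratio, 10.7 (95% exact interval 5.65 to 22.9), and had 4 and 6 counts in the *bam* RNAi libraries. *CG13028* (FBgn0036676; chromosome 3L, 16923252 to 16923994, plus strand; a single exon) had 2.27 and 2.90 CPM in *aramis* RNAi, against 0 and 0.474 CPM in *bam* RNAi. Its ratio was 10.2 (95% exact interval 4.73 to 26.1). The *bam* RNAi libraries held 0 and 7 counts, so it was at 0 in the first and close to the upper limit in the second.

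*lncRNA:marge* was the one gene without an annotated protein (FBgn0263380; chromosome 3L, 14976626 to 14977631, minus strand; 2 exons). It had 3.82 and 2.51 CPM in *aramis* RNAi, against 0.154 and 0.406 CPM in *bam* RNAi. Its ratio was 11.1 (95% exact interval 5.41 to 26.3). Its 2 annotated transcripts are noncoding.

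**Figure D1:**
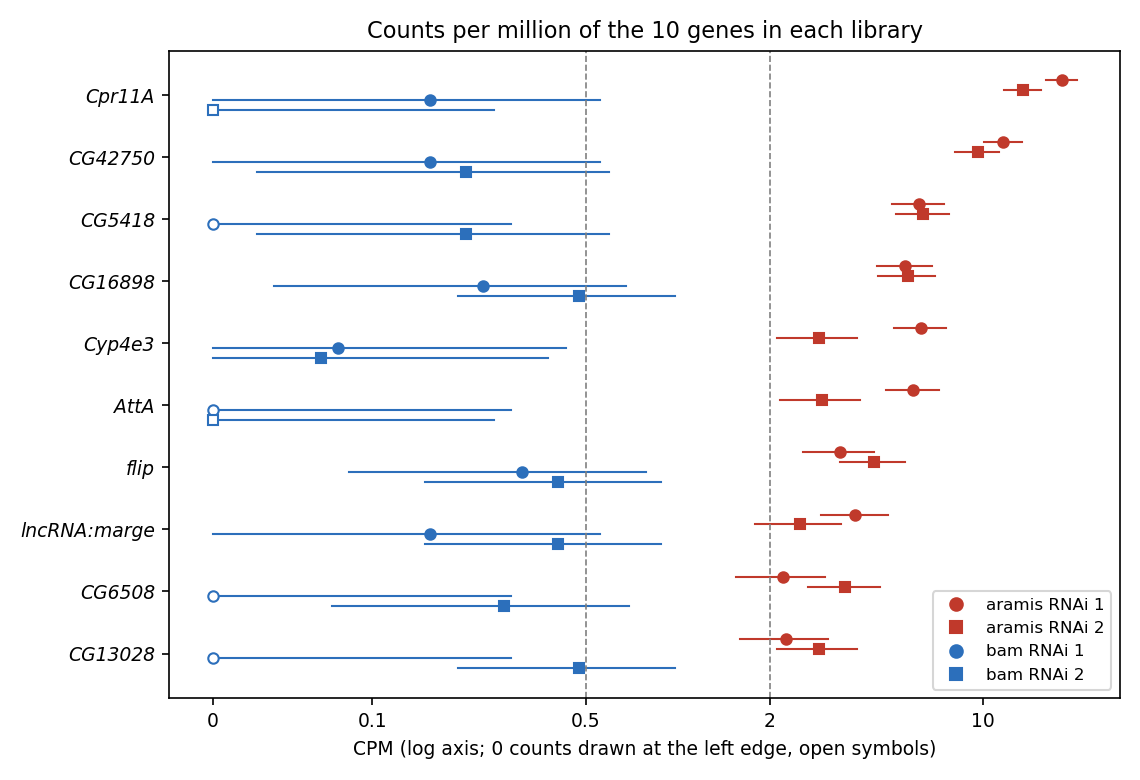
Levels in CPM of each of the 10 genes (rows, by mean in *aramis* RNAi) in the 2 *aramis* RNAi libraries (red) and the 2 *bam* RNAi libraries (blue), on a log axis with 0 counts drawn as open symbols at the left edge. Lines are 95% exact Poisson intervals, cut at the left edge, and dashed lines mark 0.5 and 2 CPM. All *aramis* RNAi values lie between 2.21 and 18.1 CPM and all *bam* RNAi values at or under 0.474 CPM.

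The 10 genes together held 1094 and 844 counts in *aramis* RNAi, against 14 and 37 counts in *bam* RNAi. That is 65.3 and 54.3 CPM in *aramis* RNAi, against 1.08 and 2.51 CPM in *bam* RNAi. The second *bam* RNAi library had the higher level in 7 of the 10 genes and the first in 2, and *AttA* was at 0 in both. The first *bam* RNAi library held no count for 4 genes and the second for 2. Computed as planned, with 3 counts per library in place of the *bam* RNAi level where both libraries held 3 counts or fewer (5 genes), the ratios ran from 10.9 to 72.8 with a median of 20.8. The ratios of those 5 genes, the largest among them, are lower bounds, so the range and median mix bounds with estimates.

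All 10 genes had at least 10 counts over the 4 libraries, the minimum for testing, through *aramis* RNAi alone. Fitted with all other genes, 10 of 10 were called higher in *aramis* RNAi (DESeq2 adjusted p under 0.05), where 9.85% of genes with an adjusted p were called higher. In all 10, both *aramis* RNAi libraries lay above both *bam* RNAi libraries, as they did for 18.7% of tested genes. The rule fixes both counts, and nothing is read from them.

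The genes next to the limits show how narrow the choice is. Just inside the lower limit were *CG6508*, *CG13028* and *lncRNA:marge*, with their lower *aramis* RNAi library at 2.21, 2.27 and 2.51 CPM. Just outside it were *CG13559* at 1.91 CPM, *CG6733* at 1.87 CPM and *Ance-4* at 1.80 CPM, all under 0.5 CPM in both *bam* RNAi libraries. Just inside the upper limit were *CG16898* and *CG13028*, both at 0.474 CPM in the higher *bam* RNAi library, and *flip* at 0.406 CPM. Just outside were *CG13982*, *Fatp3* and *CG13678*, each at 0.542 CPM, or 8 counts. Among the 7855 genes at 2 CPM or more in both *aramis* RNAi libraries, 24 had their higher *bam* RNAi library at 0.5 to 1 CPM, 88 at 1 to 2 CPM, 322 at 2 to 5 CPM and 7411 above that.

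**Figure D2:**
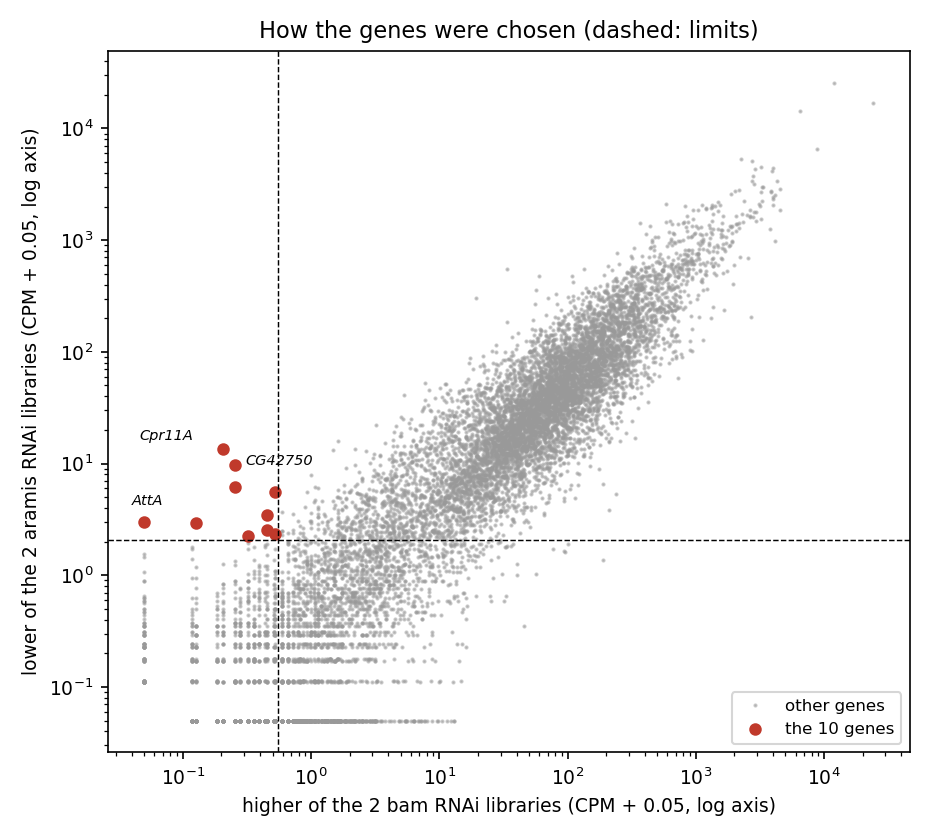
Each gene with a count, by the higher of its 2 *bam* RNAi libraries (horizontal) and the lower of its 2 *aramis* RNAi libraries (vertical), both as CPM + 0.05 on log axes. Dashed lines are the limits of 0.5 and 2 CPM, and the 10 genes (red) lie above and left of them, with *Cpr11A* at 13.5 CPM the highest and *AttA* at 0 the furthest left.

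In *aramis* RNAi the 10 genes were weakly expressed for genes past the limit, which the rule itself favours. The higher the level of a gene, the larger the difference it needs to stay under 0.5 CPM in *bam* RNAi. The levels below are therefore a description, and nothing about the genes is read from them. Their median level was 4.51 CPM, against 37.6 CPM over the 7855 genes at 2 CPM or more. Per kilobase of the longest transcript, *Cpr11A* had the highest level of the 10, at 11.9 CPM per kb, below the median of 16.3 CPM per kb over 7671 of those genes with a known length. *AttA* followed at 5.61 CPM per kb and *CG5418* at 5.23 CPM per kb. The other 7 lay between 1.54 and 4.23 CPM per kb, so all 10 were in the lower part of the range, from percentile 3.02 to percentile 39.2.

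Most of them were also short genes with few exons, though the genes they are set against were not matched for level. The median longest transcript had 1326 bases in 2 exons, against 2116 bases in 4 exons over the genes at 2 CPM or more. *CG42750* with 16 exons and *Cyp4e3* with 6 were above that median, and *Cpr11A* and *flip* had 4. A single annotated transcript was listed for 8 of the 10 (80.0%), against 37.3% of the genes at 2 CPM or more, and *CG42750* and *lncRNA:marge* had 2 each. On chromosome arm 2L lay 4 of the genes, with 2 on 2R, 2 on 3L, 1 on 3R and 1 on X, where 2L holds 17.4% of the genes at 2 CPM or more. They did not lie side by side: the closest pair, *Cyp4e3* and *CG6508*, was 1069 kb apart.

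What overlapping gene models added to or took from these counts was not tested, and the strand setting of the counting is unknown. The exons of 3 of the genes overlap exons on the other strand, *CG42750* with *asRNA:CR43413*, *CG5418* with *Oatp33Eb* and *CG13028* with *CG13023*. The overlapping partners reached at most 0.119 CPM in any library. *CG6508* lies within *Nos*, the nitric oxide synthase gene, on the other strand and outside its exons. *Nos* had 0.597 and 2.00 CPM in *aramis* RNAi, against 1.46 and 0.813 CPM in *bam* RNAi, and did not follow *CG6508*.

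The nearest gene on each side was examined for all 10, giving 20 flanking genes chosen by position after values had been seen. Of these, 10 were under 0.5 CPM in all 4 libraries and 10 had enough counts to test. Called higher in *aramis* RNAi were 2 of the 10 tested, *Dro* and *CG1092*, none was called lower, and 9.85% of all genes with an adjusted p were called higher. *CG1092*, 905 bases from *flip* and on the other strand, had 463 and 331 CPM in *aramis* RNAi, against 27.4 and 80.9 CPM in *bam* RNAi. *CG1092* was called with a log2 fold change of 3.26 and an SE of 0.51 (DESeq2 adjusted p = 6.56e-08). The call held without any one library, with DESeq2 adjusted p up to 0.0122. Unlike *flip*, *CG1092* was well above 2 CPM in both *bam* RNAi libraries. *Lsp1alpha*, 843 bases from *Cpr11A* and a fat body gene for a larval storage protein, had 2.03 and 1.42 CPM in *aramis* RNAi, against 0.462 and 0.880 CPM in *bam* RNAi, and was not called (DESeq2 adjusted p = 0.289). *CG17134*, the aspartic protease gene 220 bases from *CG6508*, had 1.49 and 0 CPM in *aramis* RNAi, against 0 and 0.135 CPM in *bam* RNAi, so its counts came almost wholly from the first *aramis* RNAi library.

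*AttA* lies between *Dro*, which encodes the antimicrobial peptide Drosocin, and *AttB*, a near-identical attacin gene. *Dro* had 7.46 and 6.05 CPM in *aramis* RNAi, against 0.925 and 1.02 CPM in *bam* RNAi, and was called with a log2 fold change of 3.16 and an SE of 0.72 (DESeq2 adjusted p = 0.000394). *AttB* had 3.82 and 2.32 CPM in *aramis* RNAi, against 0.539 and 2.91 CPM in *bam* RNAi, so the groups overlapped and it was not called (log2 fold change 1.23, SE 0.95, DESeq2 adjusted p = 0.406). *AttA* took 60.7% and 56.1% of the counts of the attacin pair in *aramis* RNAi and none of the 7 and 43 counts in *bam* RNAi. Reads from the pair may be shared or misassigned where their sequences are alike, so the absence of *AttA* is uncertain to that extent. Summed, the pair had 9.73 and 5.28 CPM in *aramis* RNAi, against 0.539 and 2.91 CPM in *bam* RNAi. The mean of the pair was 7.50 ± 3.15 CPM in *aramis* RNAi, against 1.73 ± 1.68 CPM in *bam* RNAi (SD, n = 2 each), a ratio of 4.35. The pair as a whole was therefore above 0.5 CPM in both *bam* RNAi libraries.

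**Figure D3:**
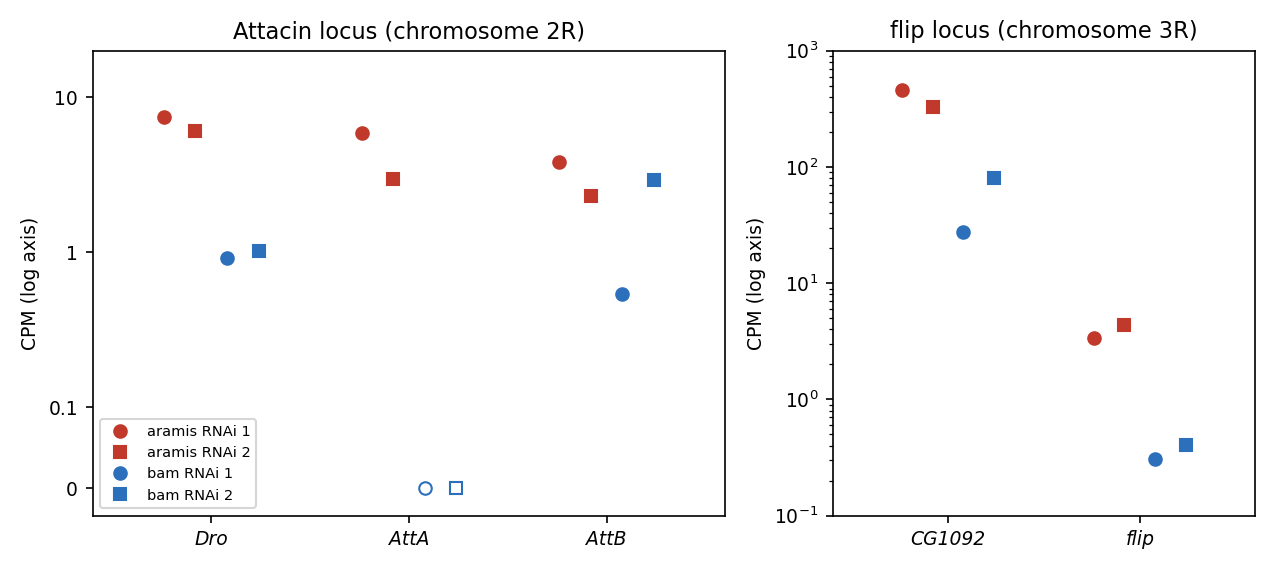
CPM in each library (log axes, *aramis* RNAi red, *bam* RNAi blue, 0 counts as open symbols) for *AttA* with its neighbours *Dro* and *AttB*, and for *flip* with its neighbour *CG1092*. *Dro* and *CG1092* are higher in both *aramis* RNAi libraries than in both *bam* RNAi libraries, while *AttB* in *bam* RNAi replicate 2, at 2.91 CPM, lies within the *aramis* RNAi values of 2.32 and 3.82 CPM.

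The other antimicrobial peptide genes were measured with the same fit. Of 26 others in the tables, 20 could be tested, 5 were called higher and none lower in *aramis* RNAi, where 9.85% of all genes with an adjusted p were called higher and 7.79% lower. Their median log2 fold change was 1.85, against -0.09 over all tested genes. Besides *Dro*, the smallest adjusted p were those of *Def*, the defensin gene, and *CecC*, a cecropin gene. *Def* had 168 and 135.5 CPM in *aramis* RNAi, against 70.0 and 36.8 CPM in *bam* RNAi (log2 fold change 1.85, SE 0.47, DESeq2 adjusted p = 0.00169). *CecC* had 1.67 and 2.96 CPM in *aramis* RNAi, against 0 and 0.0677 CPM in *bam* RNAi (DESeq2 adjusted p = 0.00494), and missed the rule only through its first *aramis* RNAi library. Without *aramis* RNAi replicate 1, none of the 20 was called, and the DESeq2 adjusted p of *Dro*, *Def* and *CecC* were 0.155, 0.25 and 0.0703. Without *aramis* RNAi replicate 2, 2 were called, and without *bam* RNAi replicate 1, 3. Without *bam* RNAi replicate 2 the count was 5.

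Of 83 other cytochrome P450 genes, 72 could be tested, 29 were called higher and none lower in *aramis* RNAi. Over all genes with an adjusted p, 9.85% were called higher and 7.79% lower. Their median log2 fold change was 1.33. The smallest adjusted p were those of *Cyp9f2* (log2 fold change 2.24, DESeq2 adjusted p = 2.47e-05), *Cyp6a2* (2.65, DESeq2 adjusted p = 2.75e-05) and *Cyp6w1* (3.48, DESeq2 adjusted p = 3.38e-05). *Cyp6w1* had 19.2 and 12.2 CPM in *aramis* RNAi, against 0.616 and 3.05 CPM in *bam* RNAi. *Cyp4e2*, of the same subfamily as *Cyp4e3* and named after its values were seen, was abundant in all libraries, with 172 and 141 CPM in *aramis* RNAi, against 46.7 and 97.0 CPM in *bam* RNAi. DESeq2 called it at a log2 fold change of 1.51 (adjusted p = 0.0115), but edgeR did not (edgeR adjusted p = 0.0527), nor did DESeq2 with total-count scaling (DESeq2 adjusted p = 0.0693) or without *aramis* RNAi replicate 1 or 2. The third gene of the subfamily, *Cyp4e1*, was under 1 CPM in every library. The 29 calls became 0 without *aramis* RNAi replicate 1 and 9 without *aramis* RNAi replicate 2, while there were 21 without *bam* RNAi replicate 1 and, with 1 called lower, 34 without *bam* RNAi replicate 2. The DESeq2 adjusted p without *aramis* RNAi replicate 1 were 0.0925 for *Cyp9f2*, 0.117 for *Cyp6a2* and 0.102 for *Cyp6w1*.

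Of 128 other cuticle protein genes, 40 could be tested, 1 was called higher, *Cpr78Ca*, and 1 lower, *Vajk2*. The shares over all genes with an adjusted p were 9.85% higher and 7.79% lower. *Cpr78Ca* had 22.9 and 13.5 CPM in *aramis* RNAi, against 5.39 and 7.18 CPM in *bam* RNAi (log2 fold change 1.91, DESeq2 adjusted p = 0.00584). *Vajk2* had 1.25 and 0.837 CPM in *aramis* RNAi, against 7.55 and 8.74 CPM in *bam* RNAi (log2 fold change -2.59, DESeq2 adjusted p = 0.00453). The median log2 fold change of the family was 0.03 with DESeq2 scaling, where that of all genes was -0.09, and -0.29 with total-count scaling, where the median of all genes was -0.45. Neither gene was called without *aramis* RNAi replicate 1, with DESeq2 adjusted p of 0.416 for *Cpr78Ca* and 0.105 for *Vajk2*. Neither was called without *aramis* RNAi replicate 2, and *Vajk2* was not called without either *bam* RNAi library, with DESeq2 adjusted p of 0.0798 and 0.0782. Without *bam* RNAi replicate 2, 2 were called higher. Of all 129 cuticle protein genes, 95 were under 0.5 CPM in all 4 libraries.

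Of 2170 other genes with a noncoding RNA or pseudogene symbol, 606 could be tested, and the fit called 17 higher and 26 lower in *aramis* RNAi. Among all genes with an adjusted p, 9.85% were called higher and 7.79% lower. The 606 may include genes without an adjusted p, which could not be called, so these shares are not strictly comparable. The median log2 fold change of the list was -0.17. Of the 3 smallest adjusted p, 2 belonged to genes lower in *aramis* RNAi. *lncRNA:CR43857* had 4.60 and 9.47 CPM in *aramis* RNAi, against 61.8 and 93.1 CPM in *bam* RNAi (log2 fold change -3.10, DESeq2 adjusted p = 1.35e-07). *lncRNA:CR32773* had 0 and 0.0644 CPM in *aramis* RNAi, against 9.56 and 13.1 CPM in *bam* RNAi (DESeq2 adjusted p = 1.84e-05). The third, *CR18228*, had 103.7 and 84.8 CPM in *aramis* RNAi, against 23.3 and 32.3 CPM in *bam* RNAi (log2 fold change 2.13, DESeq2 adjusted p = 4.3e-05), and was not called without *aramis* RNAi replicate 1 (DESeq2 adjusted p = 0.123). The counts of higher and lower calls were 0 and 3 without *aramis* RNAi replicate 1 and 2 and 8 without *aramis* RNAi replicate 2. They were 10 and 10 without *bam* RNAi replicate 1, and 13 and 8 without *bam* RNAi replicate 2.

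**Figure D4:**
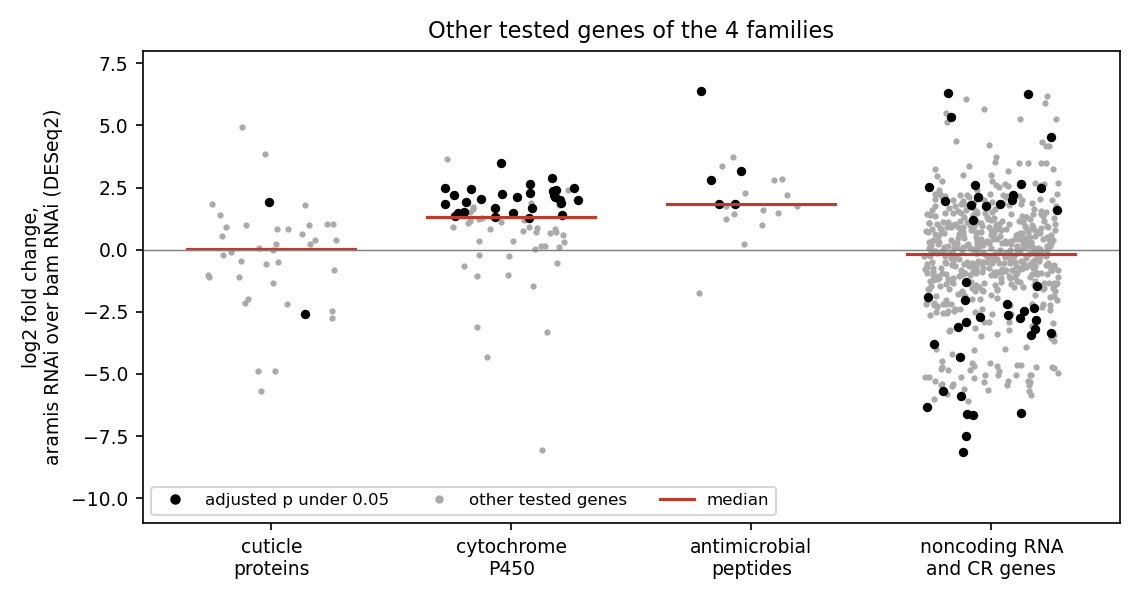
DESeq2 log2 fold change, *aramis* RNAi over *bam* RNAi, of the other tested genes of the 4 families that hold *Cpr11A*, *Cyp4e3*, *AttA* and *lncRNA:marge*. Black points had an adjusted p under 0.05, grey points did not, and red lines are medians: 0.03 for cuticle proteins, 1.33 for cytochrome P450, 1.85 for antimicrobial peptides and -0.17 for noncoding genes.

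None of the 10 genes is in the marker lists of other tissues, but the levels of several of those lists differed between the groups. Their part in the levels of the 10 genes was not tested. For all marker lists, here and below, the shares of all genes with an adjusted p were 9.85% called higher and 7.79% called lower. Of 13 fat body markers tested, 5 were called higher, with a summed level of 480 to 1060 CPM in *aramis* RNAi, against 170 to 260 CPM in *bam* RNAi. Most of the *aramis* RNAi sum was *apolpp*, at 664 and 310 CPM, against 72.7 and 101 CPM in *bam* RNAi. The other fat body markers summed to 397 and 170 CPM in *aramis* RNAi, against 97.1 and 159 CPM in *bam* RNAi. The 10 plasmatocyte markers had 7 called higher, but their summed levels overlapped, at 11120 to 16093 CPM in *aramis* RNAi, against 6507 to 13987 CPM in *bam* RNAi. Of 4 crystal cell markers, 1 was called higher, with sums of 326 to 372 CPM in *aramis* RNAi, against 30.5 to 33.8 CPM in *bam* RNAi. That call and nearly all of the sum were 1 gene, *PPO2*, a prophenoloxidase gene, at 359 and 305 CPM in *aramis* RNAi, against 4.55 and 19.4 CPM in *bam* RNAi. The other 3 crystal cell markers summed to 13.4 and 20.4 CPM in *aramis* RNAi, against 26.0 and 14.4 CPM in *bam* RNAi, and overlapped. Of 21 muscle markers tested, 9 were called higher, at 48288 to 50635 CPM in *aramis* RNAi, against 19636 to 25347 CPM in *bam* RNAi. *Act57B* alone had 29592 and 25710 CPM in *aramis* RNAi, against 7983 and 11974 CPM in *bam* RNAi. The other muscle markers summed to 18696 and 24925 CPM in *aramis* RNAi, against 17365 and 7662 CPM in *bam* RNAi, so the groups nearly met. Of 13 neuron markers tested, 2 were called higher, at 1941 to 2141 CPM in *aramis* RNAi, against 1143 to 1340 CPM in *bam* RNAi. *Vmat* alone had 1148 and 1201 CPM in *aramis* RNAi, against 658 and 433 CPM in *bam* RNAi. The other neuron markers summed to 793 and 940 CPM in *aramis* RNAi, against 682 and 710 CPM in *bam* RNAi. No marker of these 5 lists was called lower. The higher calls without *aramis* RNAi replicate 1 were 2 for fat body, 4 for plasmatocytes, 1 for crystal cells and 0 for muscle and for neurons. Without *aramis* RNAi replicate 2 they were 3 for fat body, 4 for plasmatocytes, 1 for crystal cells, 2 for muscle and 0 for neurons, and without *bam* RNAi replicate 1 there were 3 for fat body and 16 for muscle.

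Of 29 digestive enzymes of the midgut tested, 5 were called higher, with sums of 304 to 342 CPM in *aramis* RNAi, against 90.8 to 253 CPM in *bam* RNAi. Reading the rule in *aramis* RNAi replicate 2 alone added 31 genes, of which 11 were midgut digestive enzymes, such as *Jon25Biii* and *lambdaTry*. The higher calls were 9 without *aramis* RNAi replicate 1, 0 without *aramis* RNAi replicate 2 and 2 without either *bam* RNAi library, and without *bam* RNAi replicate 1 there were also 2 lower calls. *Mal-A5*, a maltase gene, took 299.9 and 206.7 CPM of the sum in *aramis* RNAi, against 88.7 and 232 CPM in *bam* RNAi, and overlapped. The other enzymes of the list summed to 4.30 and 134.8 CPM in *aramis* RNAi, against 2.08 and 20.4 CPM in *bam* RNAi, and overlapped too. The 10 genes include none of these enzymes.

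Of 36 testis markers 9 had no count in any library, none was called higher and 2 were called lower (1 without *aramis* RNAi replicate 1 and 0 without any other library), with sums of 37.0 to 45.2 CPM in *aramis* RNAi, against 84.3 CPM in each library of *bam* RNAi. Of 27 accessory gland genes 12 had no count, and their sums were 7.73 to 12.8 CPM in *aramis* RNAi, against 9.28 to 9.79 CPM in *bam* RNAi. The 5 spermatheca markers found summed to 46.1 to 50.7 CPM in *aramis* RNAi, against 86.0 to 109.7 CPM in *bam* RNAi, and no gene of these 2 lists was called in either direction. Nearly all of the spermatheca sum was *Hr39*, at 43.9 and 48.9 CPM in *aramis* RNAi, against 83.5 and 108.4 CPM in *bam* RNAi. The other spermatheca markers summed to 2.21 and 1.74 CPM in *aramis* RNAi, against 2.54 and 1.22 CPM in *bam* RNAi, and overlapped. Of 25 late follicle cell genes, 2 were called higher and 8 lower in *aramis* RNAi, at 491 to 517 CPM in *aramis* RNAi, against 1291 to 1726 CPM in *bam* RNAi (0 and 5 called without *aramis* RNAi replicate 1, 0 and 6 without replicate 2, and 1 and 8 without *bam* RNAi replicate 2). Of 16 early somatic markers of the ovary tested, 1 was called higher and 1 lower. These counts were 0 and 0 without either *aramis* RNAi library, 4 and 1 without *bam* RNAi replicate 1, and 1 and 3 without *bam* RNAi replicate 2.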

How the data were processed

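Per the labels, directional poly(A) libraries were made from ovary RNA fragmented for 13 minutes. The submitters' processing notes name HISAT2 2.1.0, featureCounts 1.4.6, DESeq2 1.24.0 and the dm6 build, without their roles or a strand setting. The authors deposited raw read counts per gene, 1 table per library, with no scaling. CPM were computed from library totals. Gene models came from Ensembl release 115 (dm6 coordinates), which held 16647 of 17023 identifiers. The other 376 had 5.52% to 6.66% of the counts, and none was among the 10 genes. No sequence was used here.

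Genes with at least 10 summed counts were fitted with the DESeq2 Wald test (version 1.42.0; Benjamini-Hochberg adjustment, called at an adjusted p under 0.05). Of 11128 tested, 10049 received an adjusted p, and 990 were higher and 783 lower in *aramis* RNAi. The fit was tested on simulated data. Known changes were placed there only in genes above a minimum mean count, so changes in genes near the floor were not covered. Alternatives, among them edgeR 4.0.16, are given in the closing section. The genes, lists and tests were chosen with earlier results of these data known. The *bam* RNAi floor of 3 counts was planned for genes with up to 3 counts per library. The ratios over summed counts were added. Named were all 10 genes with their values, the 3 genes on each side of a limit, up to 3 called genes of each family holding one of the 10, and the targeted genes. Lists of families were drawn from gene symbols, and *Cpr*, *Cyp1* and *Cyp40*, which are not of the families their symbols resemble, were removed after values had been seen. *PPO2*, *Mal-A5*, *Hr39*, *apolpp*, *Act57B*, *Vmat*, flanking genes, *AttB*, *Cyp4e1* and *Cyp4e2* were named after their values were seen.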

Additional observations from a re-analysis of the deposited data

How the results depend on the processing

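The number of genes chosen depended on the limits and on the libraries read. It was 16 with TMM-scaled CPM and 16 with DESeq2 size factors, both of which kept all 10 genes and added 6. It was 39 with a lower limit of 1 CPM, 4 with 5 CPM, 5 with an upper limit of 0.25 CPM and 34 with 1 CPM. Leaving out 1 library gave 16 to 41 genes: 41 without *aramis* RNAi replicate 1, 29 without replicate 2, 16 without *bam* RNAi replicate 1 and 39 without replicate 2, each with the 10 genes among them. Thinned to the smallest library it was 14, with 9 of the 10 kept and *CG16898* lost, and with the mean of the *bam* RNAi libraries under 0.5 CPM, chosen after seeing the data, 15. The median log2 ratio of 4.38, lower bounds included, ran from 3.89 to 4.74 over 6 alternatives.

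Calls over all genes were 990 higher and 783 lower. With edgeR 639 were higher and 528 lower, and with total-count scaling 543 and 1619, where the median of all genes was at -0.45. Leaving out 1 library, where the lone library is assumed to vary like the other genotype, gave 85 to 1400 higher and 103 to 1180 lower. Same-numbered libraries deviated from their group means with a correlation of -0.252. With 2 libraries per genotype, this cannot show whether same-numbered libraries were handled together. Adding replicate block terms, DESeq2 called 438 higher and 277 lower and edgeR 191 higher and 191 lower. With the pairing crossed, chosen after seeing the data, 1596 were higher and 1372 lower. Causes were not tested. At 0 to 7 counts per *bam* RNAi library, absence and a low level cannot be told apart.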

Other observations

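Families that hold none of the 10 genes were also counted, where 9.85% of all genes with an adjusted p were called higher and 7.79% lower. Of 28 tested genes of chitin synthesis and breakdown, 6 were called higher and none lower in *aramis* RNAi (DESeq2 adjusted p under 0.05), and of 26 genes of the melanization cascade, 9 were called higher and none lower. Of 22 serpin genes, 8 were called higher and none lower. Of 18 odorant-binding protein genes, 6 were called higher and 1 lower. Of the 4 *Turandot* stress genes tested, 3 were called higher, with a summed level of 105 and 8.11 CPM in the *aramis* RNAi libraries, against 2.23 and 1.42 CPM in *bam* RNAi, and none was called without *aramis* RNAi replicate 1. Of 3 *Osiris* genes tested, none was called. Of 7 genes that mark transgenes or balancers, 1 was called higher. The higher calls without *aramis* RNAi replicate 1 were 2 for chitin, 2 for melanization, 0 for serpins, 2 for odorant-binding proteins and 0 for transgene and balancer markers. Leaving out *aramis* RNAi replicate 2 gave 3 for chitin, 4 for melanization, 1 for serpins, 4 for odorant-binding proteins (with 0 lower) and 1 for transgene and balancer markers. Leaving out *bam* RNAi replicate 1 gave 5 for serpins and 1 for *Turandot*.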
